A study of Mus musculus with 6 samples.

Results

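The regions described here are autosomal stretches of the mouse genome in embryonic stem cells that carried 2 repressive histone marks, H3K9me3 and H3K27me3, in the same 2 kb tile. Each tile has a level per library, the log2 of its observed reads over the reads expected if the library were spread evenly over the genome. A tile was a member when the mean of its H3K9me3 levels and the mean of its H3K27me3 levels, each over both genotypes, were at least 1. This rule held for 685 of 1236182 autosomal tiles (0.0554%), which is 6.84% of the 10019 tiles with H3K9me3 of at least 1 and 1.84% of the 37206 tiles with H3K27me3 of at least 1. Members were thus selected on their H3K9me3 and H3K27me3 levels, which are given as a description, whereas H3K9me2, sequence, position and the difference between genotypes were not used by the rule. At the threshold, chr4:139814001-139816000 lay just inside with H3K27me3 at 1.00 and H3K9me3 at 1.1, and chr17:34860001-34862000 lay just outside with H3K9me3 rounding up to 1.00 and H3K27me3 at 1.08.

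The study concerned transposable elements, IAP among them, when DNA methylation is lost, with and without the small-RNA enzyme Dicer. The libraries used here bear on where repressive marks lie once Dnmt1 is also lost. Libraries of chromatin pulled down for H3K9me3, H3K27me3 or H3K9me2 were compared between Dicer KO cells, with a constitutive CRISPR/Cas9 deletion of Dicer in a Dnmt1 loxP/loxP ESC line, and Dicer KO/Dnmt1 cKO cells, in which 4OHT-induced Cre had also removed Dnmt1, the maintenance DNA methyltransferase. All cells thus lacked Dicer, the labels give the strain as E14 while the study's methods give C57BL/6, and the cells were kept in serum with LIF, with or without feeders. For the ChIP libraries the methods give gelatine-coated dishes and name no feeders. There was 1 library per mark and genotype, so no difference between genotypes has a replicate check. The Dicer KO and Dicer KO/Dnmt1 cKO libraries held 18155478 and 18931477 reads (H3K9me3), 27162045 and 21280804 (H3K27me3), and 16834940 and 20503709 (H3K9me2), with medians of 13 to 18 reads per tile. The intervals given with read ratios and shares are 95% intervals that cover counting error only.

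H3K27me3 is placed by Polycomb complexes, mostly at CpG-rich start sites of silent developmental genes, while H3K9me3 is placed by other methyltransferases on retrotransposons, satellite repeats and the methylated allele of imprinted control regions. The marks mostly occupy different chromatin, although at an imprinted gene the silent and the active parental alleles can carry different ones in the same cell. A repeat present in many copies in the cells but collapsed to few copies in the assembly gathers the reads of all its copies, and then appears high in every library whatever the antibody. H3K9me2, a broad mark of silent chromatin, was therefore used to separate the members.

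Sequences from members at imprinted genes are shown first, because H3K9me2 was low there and the parental alleles of such genes can differ in their marks. Each is the stretch of 120 bases richest in CpG outside annotated untranslated sequence, on the + strand of NCBIM37, with every CpG in capitals. The Gnas sequence, chr2:174125421-174125540, lies in a coding exon. The Grb10 sequence, chr11:11926381-11926500, lies in an intron, in a tile with an annotated transcript start inside the gene. The H19 sequence, chr7:149764101-149764220, lies outside the gene body in its start-site tile. The Rasgrf1 sequence, chr9:89776471-89776590, lies in an intergenic tile 26.6 kb from the gene.
Gnas: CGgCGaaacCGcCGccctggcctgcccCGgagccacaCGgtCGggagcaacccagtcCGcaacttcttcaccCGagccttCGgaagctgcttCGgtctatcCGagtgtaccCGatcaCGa
Grb10: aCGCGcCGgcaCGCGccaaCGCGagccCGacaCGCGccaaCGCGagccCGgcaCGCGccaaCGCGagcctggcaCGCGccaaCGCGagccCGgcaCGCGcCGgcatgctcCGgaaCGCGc
H19: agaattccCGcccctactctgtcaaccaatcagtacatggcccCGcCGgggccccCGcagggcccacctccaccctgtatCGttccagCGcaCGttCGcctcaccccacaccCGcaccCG
Rasgrf1: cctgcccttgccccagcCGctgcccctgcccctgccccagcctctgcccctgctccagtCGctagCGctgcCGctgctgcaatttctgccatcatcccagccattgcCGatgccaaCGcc
These windows hold 14, 28, 10 and 6 CpGs, and their whole tiles hold 147, 105, 47 and 34, beside a median of 14 over autosomal tiles. This median, like the autosomal median of H3K9me2 and the shares by sequence and position, is over the 1196907 autosomal tiles of known sequence, or for repeats over evenly spaced tiles among them. The letters TGCCGC, a sequence bound by the imprinting factor ZFP57 when methylated, were found on either strand in 24.2% of members with H3K9me2 under 1 and in 11.2% of autosomal tiles. They were just as common in tiles with H3K9me3 alone (24.5%) or H3K27me3 alone (24.7%), so this share does not set the members apart. At listed imprinted genes 6 of 9 members held them (66.7%, Wilson interval 35.4 to 87.9), in tiles that are also richer in GC and CpG.

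A further set shows tandem arrays, because members with opposite H3K9me2 levels held them. Capitals mark bases equal to the base 1 repeat unit further along the + strand. The first comes from an intron of Ddo, which encodes D-aspartate oxidase (chr10:40366862-40366921), the next from intergenic sequence at chr15:79292212-79292271, then an intron of D030054H15Rik (chr17:8105137-8105196), an intron of the centrosomal gene Sfi1 (chr11:3051790-3051839), and a satellite-like array next to the assembled end of chromosome 9, annotated as a coding exon of the gene model Gm10717 (chr9:3025533-3025766).
Ddo: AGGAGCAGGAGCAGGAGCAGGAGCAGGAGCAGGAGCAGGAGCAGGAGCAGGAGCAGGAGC
chr15: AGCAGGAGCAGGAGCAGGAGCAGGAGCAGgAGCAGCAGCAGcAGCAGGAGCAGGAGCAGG
D030054H15Rik: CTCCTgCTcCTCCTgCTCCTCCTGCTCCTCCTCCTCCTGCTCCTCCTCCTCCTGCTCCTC
Sfi1: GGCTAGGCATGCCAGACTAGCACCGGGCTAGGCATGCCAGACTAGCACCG
chr9: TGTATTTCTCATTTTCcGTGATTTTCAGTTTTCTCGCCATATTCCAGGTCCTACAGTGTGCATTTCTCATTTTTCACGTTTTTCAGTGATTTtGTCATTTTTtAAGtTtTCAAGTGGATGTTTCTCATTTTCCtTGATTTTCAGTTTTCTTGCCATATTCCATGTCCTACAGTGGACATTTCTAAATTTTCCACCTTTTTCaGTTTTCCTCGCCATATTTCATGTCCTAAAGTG
Their units are 6, 6, 15, 25 and 234 bases long. Tandem sequence filled at least 10% of 30 members, 7 with H3K9me2 under 1 and 23 with H3K9me2 of at least 1, and 14 of the 30 had the unit of 234 bases. These are 2.56% and 5.58% of each subset, against 1.46% of evenly spaced autosomal tiles, but 15 of the 23 lie in the chromosome 9 array, and of the 396 members of high H3K9me2 outside it 8 (2.02%) held such sequence, so neither subset was far from that share. The first 3 sequences come from tiles with H3K9me2 at -1.78, -1.89 and -2.10, and the last pair from tiles with H3K9me2 at 4.65 and 6.54.

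The end of chromosome 14 stood apart in every library and is described before the results that it touches. From chr14:98000001 to the chromosome's end at 125194864, the median level of all 13598 tiles exceeded that of the other autosomal tiles in Dicer KO and Dicer KO/Dnmt1 cKO by 0.62 and 0.58 (H3K9me3), 0.56 and 0.62 (H3K27me3), and 0.69 and 0.56 (H3K9me2), ratios of 1.47 to 1.62. All 3 marks were thus raised alike, in both genotypes. The cause was not tested, since no input library entered the work. The segment held 64 members, 57 of them with H3K9me2 under 1, and after the median shift of each 2 Mb bin was subtracted 0 of the 64 met the rule. Counts are therefore also given without it, when 621 members remain.

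H3K9me2 was at least 1 in 412 of the 685 members (60.1%, Wilson interval 56.4 to 63.7) and under 1 in 273. This interval treats tiles as independent, although 319 of the 412 adjoined another member, so it is too narrow. Without the chromosome 14 segment the share was 65.2%, and 216 members had H3K9me2 under 1. Among tiles with only H3K9me3 of at least 1 the share was 133 of 9334 (1.42%), among tiles with only H3K27me3 it was 174 of 36521 (0.476%), and over all autosomal tiles 0.125%. How often all 3 marks occurred together depended on the threshold. With both selecting marks at 0.5 or more, 7.77% of 9666 tiles had H3K9me2 of at least 1, while of 173 members with both at 2 or more, 170 did. The 3 others were the tile of Cdk8, a kinase of the Mediator complex, an intron tile of Smo, the signal transducer of the Hedgehog pathway, and chr3:5860001-5862000, far from any start site. Their H3K9me2 was 0.71, 0.91 and 0.95, not far under the split. Of their 31-base words, 7.61%, 43.1% and 74.0% also occurred elsewhere in the assembly.

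**Figure D1:**
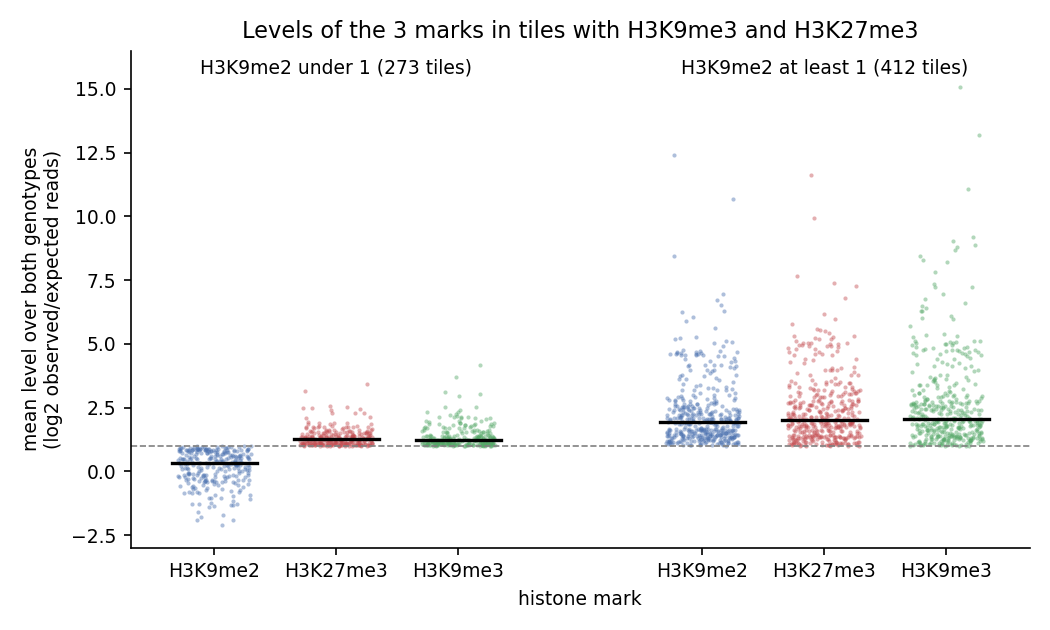
Mean level of each mark over both genotypes (vertical axis, log2 observed over expected reads) in the 273 members with H3K9me2 under 1 and the 412 members with H3K9me2 of at least 1. Each point is a tile, black bars are medians (0.33, 1.25 and 1.21 at left, 1.93, 2.02 and 2.07 at right) and the dashed line is the threshold of 1.

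The rule and the split set how far apart the marks could lie, so their levels are given as a description. In members with H3K9me2 of at least 1, in Dicer KO their median levels were 1.98 (H3K9me2), 2.03 (H3K27me3) and 2.12 (H3K9me3), and in Dicer KO/Dnmt1 cKO they were 1.90, 2.02 and 2.11. In members with H3K9me2 under 1 the medians were 0.42, 1.27 and 1.28 in Dicer KO and 0.26, 1.21 and 1.25 in Dicer KO/Dnmt1 cKO. Their H3K9me2 was still above the autosomal median of -0.26, with 95 tiles under 0 and 178 between 0 and 1. The plot of levels by mark shows this contrast, with a tail of H3K9me3 levels up to 15.06 in the tiles with high H3K9me2.

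The members with H3K9me2 under 1 were of several kinds. Of the 273, 57 lay in the chromosome 14 segment (median H3K9me2 of 0.65), 64 within 100 kb of a member with H3K9me2 of at least 1 (0.77), 9 at listed imprinted genes (-0.99), and 143 elsewhere (-0.14). The neighbours of high tiles resembled these in sequence, as a median of 55.6% of their 31-base words also occurred elsewhere in the assembly, while the words were 0.914% repeated in the segment, 2.74% in the 143 other tiles and 0% at imprinted genes. After the median of each 2 Mb bin was subtracted, 122 of the 216 tiles outside the segment still met the rule.

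Among the members, sequence copies went along with H3K9me2. The median share of 31-base words found elsewhere in the assembly was 39.5% in members with H3K9me2 of at least 1, 4.11% in those under 1 and 4.87% in 2395 evenly spaced autosomal tiles. It was 20.6% in evenly spaced tiles with H3K9me3 alone and 0.812% in those with H3K27me3 alone. Of all tiles with H3K9me3 alone, just 1.42% had H3K9me2 of at least 1, so repeated sequence did not by itself go with high H3K9me2. Of members with under 10% of such words, 95 of 271 (35.1%, Wilson interval 29.6 to 40.9) had H3K9me2 of at least 1, and of those with 90% or more, 57 of 68 (83.8%, 73.3 to 90.7). Without the chromosome 14 segment the former share was 88 of 212 (41.5%, 35.1 to 48.2). These intervals treat adjacent tiles as independent, although the Ugt1a locus, described below, alone had 45 members, 44 of them with high H3K9me2. Its median tile had 0.457% of such words, and the share without this locus was not calculated. The bars of H3K9me2 by copy share rise at each step, yet they also show that unique sequence does not mean low H3K9me2. A tile that is unique in the assembly can still have further copies in these cells, which was not tested.

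**Figure D2:**
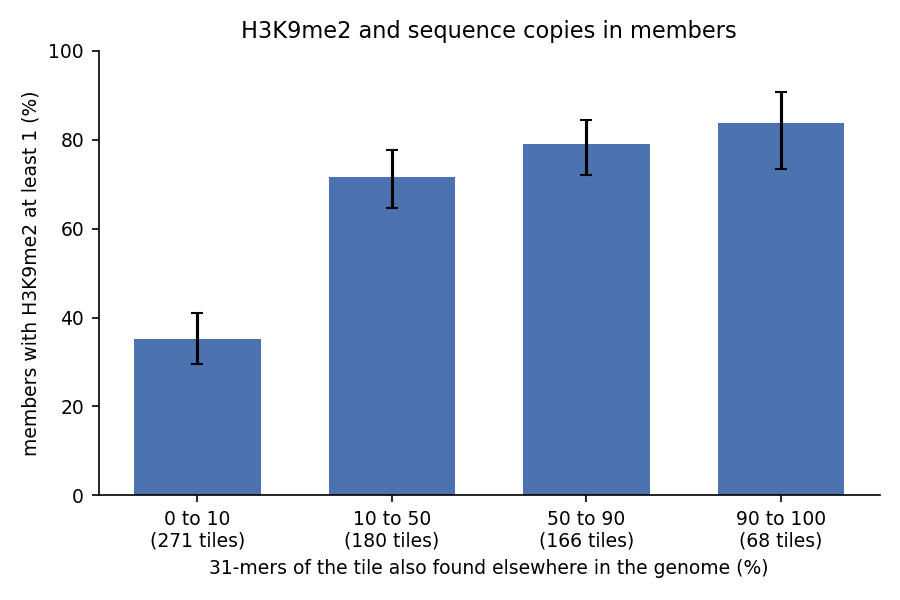
Share of members with H3K9me2 of at least 1 (vertical axis, percent) by the share of the tile's 31-base words that also occur elsewhere in the assembly (horizontal axis, percent). Bars are 35.1%, 71.7%, 78.9% and 83.8% of 271, 180, 166 and 68 tiles, and error bars are 95% Wilson intervals.

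Both subsets were also placed differently. Members with H3K9me2 of at least 1 touched an annotated gene in 63.1% of cases and a start site in 15%, against 43.8% and 4.17% of autosomal tiles, while members under 1 did so in 44.3% and 8.06%. Tiles with H3K27me3 alone had 55.3% and 11.9%, and tiles with H3K9me3 alone 25.0% and 2.17%, so nearness to genes was not particular to the members. Assembly gaps lay within 50 kb of 22.3% of members with high H3K9me2 and 7.69% of the others, against 0.672% of autosomal tiles. By kind of the latter members, the share was 26.6% in the neighbours of high tiles and 2.10% in the 143 tiles elsewhere. It was 11.1% in the 9 imprinted tiles and 0 in the chromosome 14 segment. The first 1 Mb of a chromosome's known sequence, next to the centromere in the mouse, held 77 of the 412 (18.7%) and 3 of the 273 (1.1%), against 0.791% of autosomal tiles. GC content was 43.5% and 47.8% (medians), beside 41.6% over autosomal tiles, and 49.5% in tiles with H3K27me3 alone. High members also came in blocks, with 319 of 412 next to another member, whereas 198 of the 273 others (72.5%) stood alone. Joined across up to 100 kb, the 685 tiles formed 215 loci, of which 83 held a tile with high H3K9me2, and the 10 loci with most such tiles held 58.5% of them.

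The locus with most members, 45, covered the Ugt1a cluster of UDP-glucuronosyltransferases and Hjurp, the chaperone of the centromeric histone, at chr1:90108001-90208000. Its median levels were 2.40 (H3K9me2), 2.74 (H3K27me3) and 2.53 (H3K9me3), and just 0.457% of the words of its median tile occurred elsewhere. This locus was thus high in all marks although its sequence is nearly unique in the assembly. At 2610005L07Rik, chr8:19894001-20034000, 37 members had similar levels of 2.45, 2.29 and 2.26, with 91.1% repeated words. A further 37 members formed the longest run, 74 kb at chr11:3026001-3100000 over Pisd-ps1, Sfi1 and Drg1, and its medians of 4.55, 4.81 and 4.73 were far higher. At Nlgn1, which encodes the synaptic adhesion protein neuroligin 1, a run of 20 tiles at chr3:25416001-25456000 had 1.98, 1.87 and 1.94. Other loci with at least 10 members included those at C130026I21Rik and at Speer4e, one of a family of testis genes. Among them were also the sperm motility kinase genes Smok2a and Smok2b, and Sp110 and Sp140, which encode nuclear body proteins. In nearly all loci with at least 10 members the marks differed by less than 1, as the plot of loci shows, the exception being the array on chromosome 9. The locus at Gpc6, a glypican gene, and Dct had H3K9me2 of at least 1 in 1 of 17 tiles and lies in the chromosome 14 segment.

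**Figure D3:**
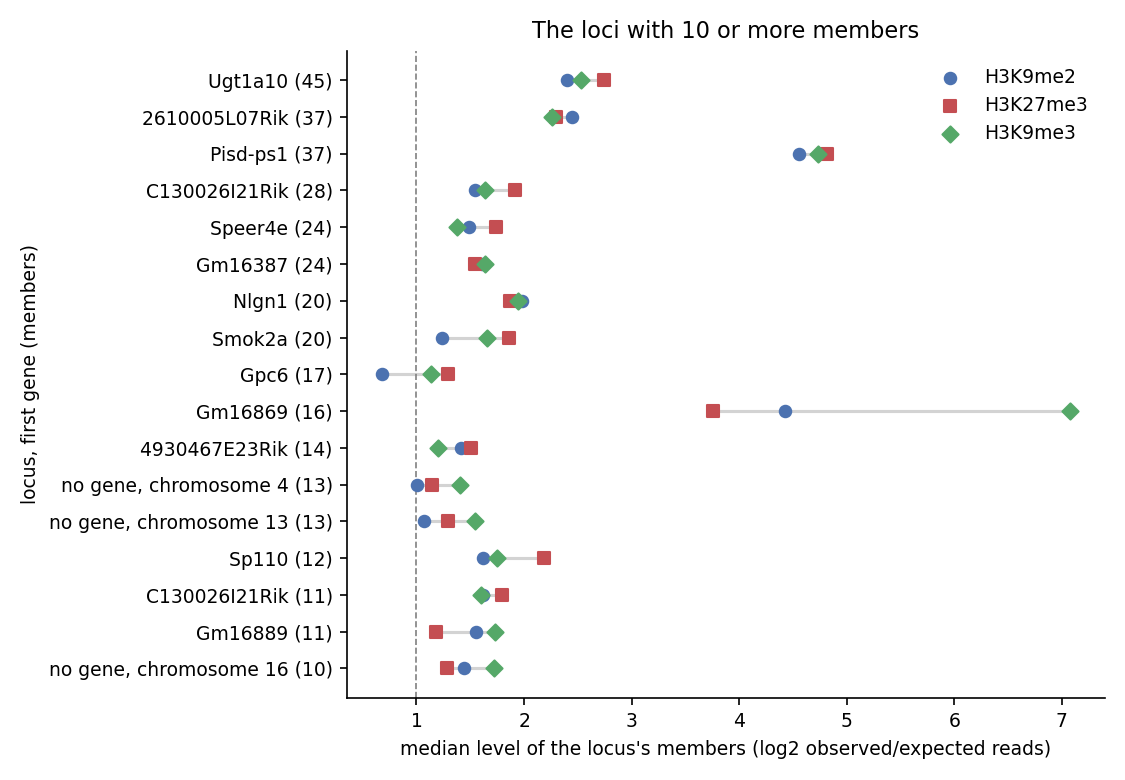
Median level of H3K9me2, H3K27me3 and H3K9me3 (horizontal axis, log2 observed over expected reads) over the members of each locus with 10 or more (rows, number of members in brackets, first annotated gene as name). The Pisd-ps1 locus had 4.55, 4.81 and 4.73, the Gm16869 array on chromosome 9 had 4.42, 3.75 and 7.08, and the dashed line is the threshold of 1.

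The members with most reads differed from these blocks in their balance of marks. The tile of the gene model Gm10800, chr2:98506001-98508000, had levels of 12.41 for H3K9me2, 11.63 for H3K27me3 and 15.06 for H3K9me3. It alone held 598197 reads of the H3K9me3 library of Dicer KO and 641652 of Dicer KO/Dnmt1 cKO. Its neighbour at Gm10801 (chr2:98502001-98504000), chr9:35112001-35114000, an exon tile of the adhesion gene Chl1 and the array at chr9:3000001-3040000 had the same order of marks, H3K9me3 first and H3K27me3 last. Together the 685 members took 5.23% and 5.37% of the H3K9me3 reads of each genotype, and the 10 members with most reads held 89.7% and 90.1% of that. The 273 members with H3K9me2 under 1 took 0.0744% and 0.0726%. A different order was found at the ribosomal RNA gene model AY036118 on chromosome 17. At chr17:39980001-39982000, H3K27me3 was 7.38, H3K9me3 6.48 and H3K9me2 4.17, and the neighbouring tile chr17:39978001-39980000 had H3K9me2 of 0.31 with H3K27me3 at 2.46. The order of marks therefore separated the chromosome 2 tiles and the chromosome 9 array from the ribosomal sequence.

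At imprinted genes, which are expressed from 1 parental allele, members had low H3K9me2. Of 42 listed genes on autosomes, 7 had a member within 2 kb (16.7%, Wilson interval 8.32 to 30.6), against 207 of 34653 autosomal genes (0.597%). These were Gnas, which encodes the stimulatory G protein subunit, its antisense transcript Nespas, the growth-factor receptor adaptor Grb10, the non-coding RNAs H19 and Meg3, Mest, and the retrotransposon-derived Rtl1. The only member of Nespas is also a tile of Gnas, with a transcript start inside that gene, so the 7 genes are not 7 separate places. All 9 tiles of these genes had H3K9me2 under 1. Of the same list, 28 genes had a tile with H3K9me3 of at least 1, 21 had one with H3K27me3, and 14 had both marks somewhere, so that 7 of 14 had them within a single tile. The same shares over all autosomal genes were not calculated. Longer genes have more tiles that can pass, and the listed genes had from 3 to 238 tiles within 2 kb.

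The exon tile of Gnas, chr2:174124001-174126000, had H3K27me3 at 2.26 (127 reads) in Dicer KO and 1.55 (61) in Dicer KO/Dnmt1 cKO, H3K9me3 at 2.21 (82) and 1.98 (73), and a mean H3K9me2 of -1.60. The tile chr11:11926001-11928000 holds an annotated transcript start inside Grb10, whose 5' end lies at 11938686 on the - strand. There H3K27me3 was 1.93 (101 reads) and 1.30 (51), H3K9me3 was 2.48 (99) and 1.77 (63), and mean H3K9me2 was -0.69. The levels of both selecting marks were lower in Dicer KO/Dnmt1 cKO at each of these tiles. Summed over its 3 tiles, Grb10 had log2 ratios of Dicer KO/Dnmt1 cKO over Dicer KO, scaled by library totals, of -0.54 [-0.81, -0.26] for H3K27me3 and -0.51 [-0.81, -0.22] for H3K9me3. The 2 tiles of Gnas had -0.65 [-0.99, -0.32] and -0.34 [-0.67, -0.01].

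At H19, the start-site tile chr7:149764001-149766000 had H3K9me3 at 1.61 (54 reads) and 1.11 (40), a ratio of -0.49 [-1.08, 0.10], and H3K27me3 at 1.25 (63) and 1.21 (48). The tile 3.95 kb upstream of the gene, chr7:149768001-149770000 had a H3K9me3 ratio of -0.84 [-1.44, -0.25] and a H3K27me3 ratio of -0.31. The Meg3 and Rtl1 domain of chromosome 12, in which maternally expressed non-coding RNAs and microRNAs alternate with paternally expressed genes, held 7 members with H3K27me3 ratios from -0.29 to 0.12 and H3K9me3 ratios from -0.06 to 0.83. The Meg3 start-site tile, chr12:110778001-110780000, had H3K27me3 at 1.00 and 1.11 and H3K9me3 at 1.55 and 1.70, a ratio of 0.15 [-0.39, 0.68]. The tile at Rtl1, chr12:110830001-110832000, had a H3K9me3 ratio of 0.60 [-0.03, 1.22], and the tile of Mir411, 23.2 kb from the listed gene Mirg, 0.83 [0.15, 1.5]. The third Grb10 tile, chr11:11928001-11930000, had a H3K9me3 ratio of 0.08 [-0.54, 0.69], and the member at Mest had -0.25 for H3K9me3 and 0.20 for H3K27me3, so tiles differed within and between genes.

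Within 100 kb of a listed imprinted gene there were 16 members at 8 genes, Rasgrf1 and Mirg included, and all had H3K9me2 under 1, 11 of them under 0. Over the 16 tiles, H3K27me3 had 1217 reads in Dicer KO and 789 in Dicer KO/Dnmt1 cKO, a log2 ratio of -0.27 [-0.40, -0.14], with 13 tiles below 0. Of all 273 members with H3K9me2 under 1, 166 lay below 0 for H3K27me3, and several of the 16 share a gene or domain. H3K9me3 had 852 and 798 reads and a ratio of -0.15 [-0.29, -0.02], with 9 tiles below 0, and H3K9me2 219 and 230 reads and -0.21 [-0.48, 0.05]. The plot of imprinted tiles gives each library's level. Since H3K27me3 alone tiles had a H3K27me3 ratio of -0.19 across the genome and H3K9me3 alone tiles a H3K9me3 ratio of -0.17, the ratios of the 16 tiles are close to those of other tiles with these marks.

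**Figure D4:**
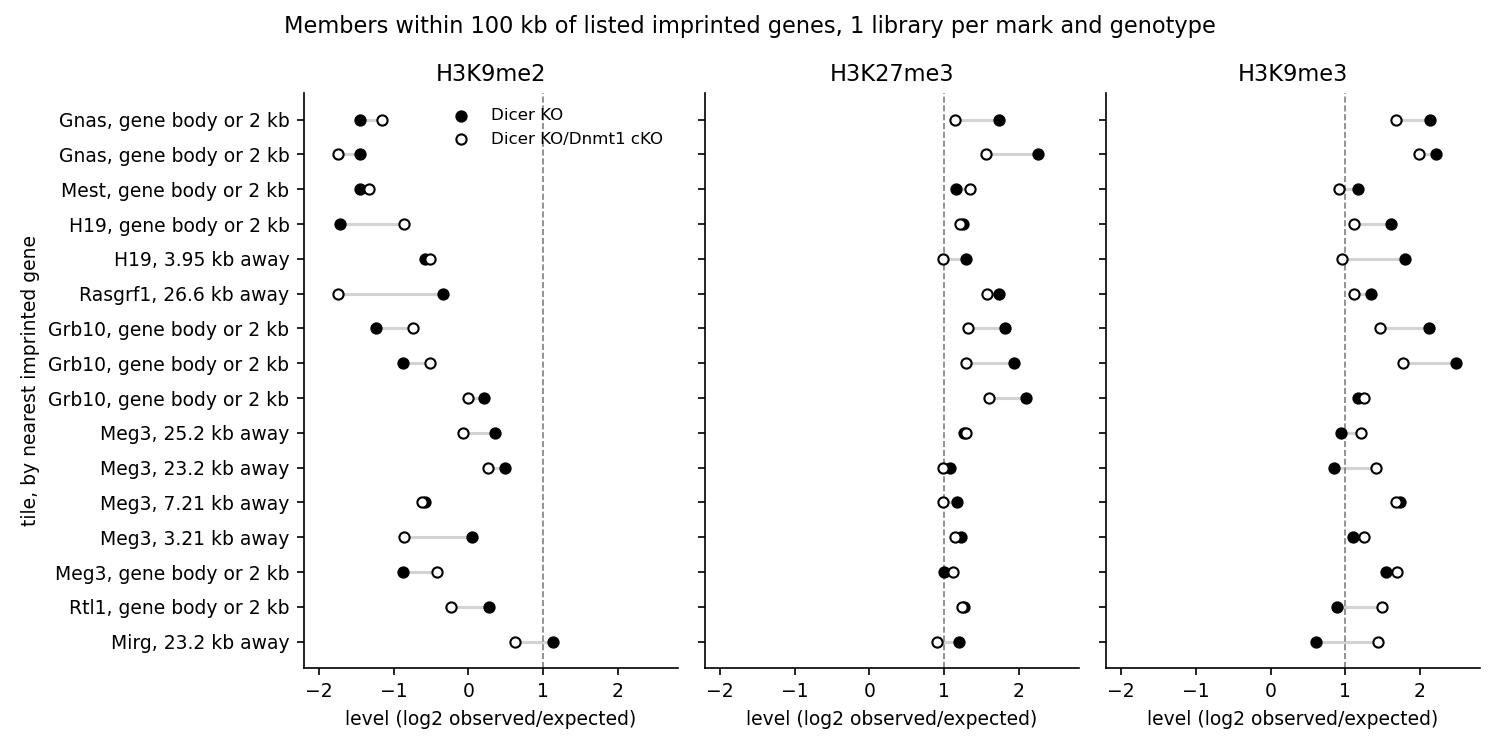
Level of each mark (horizontal axes, log2 observed over expected reads) in the 16 members within 100 kb of a listed imprinted gene (rows, by nearest gene and distance), in Dicer KO (filled) and Dicer KO/Dnmt1 cKO (open), 1 library each, with grey lines joining them. H3K9me2 means ran from -1.60 to 0.88. H3K27me3 was lower in Dicer KO/Dnmt1 cKO in 13 of 16 tiles, and in 166 of all 273 members with H3K9me2 under 1.

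Away from imprinted genes, several genes had members with H3K9me2 under 1. Nefm, which encodes the medium neurofilament chain, had 3 adjacent members from its start site, with a median H3K9me2 of -1.28. Its H3K27me3 reads were 312 and 187, a ratio of -0.39 [-0.65, -0.12], and its H3K9me3 reads 168 and 118, a ratio of -0.57 [-0.91, -0.23]. The middle tile, chr14:68740001-68742000, was the only member with a 2-fold lower H3K9me3, 61 reads against 30. Nefm lies outside the raised segment, and at most 0.254% of the words of its tiles occurred elsewhere.

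Sdk2, an adhesion gene of the nervous system, had 4 intron members with a median H3K9me2 of -0.24 and H3K27me3 and H3K9me3 close to the threshold at 1.08 and 1.1. Caln1 and the non-coding gene 1700030G06Rik had 3 each, with H3K27me3 ratios of -0.35 [-0.68, -0.02] and -0.52 [-0.84, -0.21]. Gpc6 had 14 members with H3K9me2 under 1, more than any other gene, but all lie in the chromosome 14 segment. Its H3K9me3 reads were 494 and 618, a ratio of 0.26 [0.09, 0.43], in the opposite direction to Nefm. The genes with most members of H3K9me2 under 1 thus differed in both position and the direction of their ratios.

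Other gene lists held almost no members, apart from the list of ribosomal and structural RNA genes. Its only autosomal gene, AY036118, had 2 members, both with H3K9me2 of at least 1 (Wilson interval 20.7 to 100). The share of all autosomal genes, 0.597%, lies within the Wilson intervals of the remaining lists, apart from that of the olfactory receptors (upper limit 0.308%). Of 43 developmental transcription factors on the list, 42 had a tile with H3K27me3 of at least 1 and 0 had one with H3K9me3, and of 40 Hox genes 39 and 0. These counts by gene have no share over all autosomal genes beside them, as it was not calculated. No member was found at 30 germline genes, 10 pluripotency genes, 25 clustered protocadherins, 1243 olfactory receptors, 326 vomeronasal receptors or 70 histone genes, while 1 of 341 zinc finger genes, Zfp831, had an exon tile with H3K27me3 at 1.1, H3K9me3 at 1.07 and H3K9me2 at 0.18. The germline, zinc finger and receptor genes each included genes with 1 of the marks, so that absence from the members was not absence of the marks.

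The cell type was checked by H3K27me3 at start sites. It was at least 1 at 7 of 8 genes that are Polycomb targets in ESCs and at 1 of 10 pluripotency genes, Dppa3 (1.24). Among 6 feeder fibroblast genes it was at least 1 at 3, Col1a1, Col1a2 and Thy1, with 0.95 at Postn, 0.04 at Vim and -4.13 at Fn1. The part of feeder cells in any value was not tested. Neither Dnmt1 nor Dicer1 held a member, with H3K27me3 at -2.39 and -3.05 at their start sites.

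The AGGAGC array of Ddo was followed beyond the members, a choice made after its values were seen. At least 5 copies of AGGAGC in a row, in any phase and on either strand, were found in 91 autosomal tiles. Of these, 3 were members. Among the 88 others, H3K27me3 was at least 1 in 22, against 3.01% of autosomal tiles. This is a description only, since the unit came from a tile selected on this mark and some of the 88 tiles adjoin each other or a member. The medians of the 91 tiles were 0.54 for H3K27me3, -0.06 for H3K9me3 and -0.55 for H3K9me2. The 3 members were the Ddo tile (H3K27me3 at 2.52, H3K9me3 at 1.49, H3K9me2 at -1.78), chr15:79292001-79294000 (2.57, 1.53, -1.89) and chr13:104780001-104782000 (1.46, 1.1, -0.75). H3K9me2 reads in the Ddo tile were just 4 and 7, against 153 and 119 of H3K27me3. This array was thus not high for every antibody, unlike the chromosome 2 tiles and the chromosome 9 array.

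For the difference between genotypes, members with H3K9me2 under 1 had 5797 and 6534 reads of H3K9me2 in Dicer KO and Dicer KO/Dnmt1 cKO, 19913 and 14417 of H3K27me3, and 13514 and 13743 of H3K9me3. The log2 ratios were -0.11 [-0.16, -0.06], -0.11 [-0.14, -0.08] and -0.04 [-0.07, -0.00]. For H3K9me3 this direction depends on the summing, since 137 single tiles lay above 0 and 136 below. Without the chromosome 14 segment H3K27me3 had -0.15 and H3K9me3 -0.07. Tiles with H3K27me3 alone had a H3K27me3 ratio of -0.19, and tiles with H3K9me3 alone a H3K9me3 ratio of -0.17, and their H3K9me2 ratios were 0.05 and -0.05. By kind, the H3K27me3 ratio was -0.35 [-0.52, -0.18] at the 9 imprinted tiles, -0.17 [-0.21, -0.13] in the 143 other tiles, -0.07 [-0.13, -0.01] in the neighbours of high tiles and 0.03 [-0.04, 0.10] in the segment. For H3K9me3 the ratios ran from -0.28 [-0.46, -0.10] at imprinted genes, through -0.06 in the other tiles and in the neighbours of high tiles, to 0.12 [0.03, 0.20] in the segment.

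**Figure D5:**
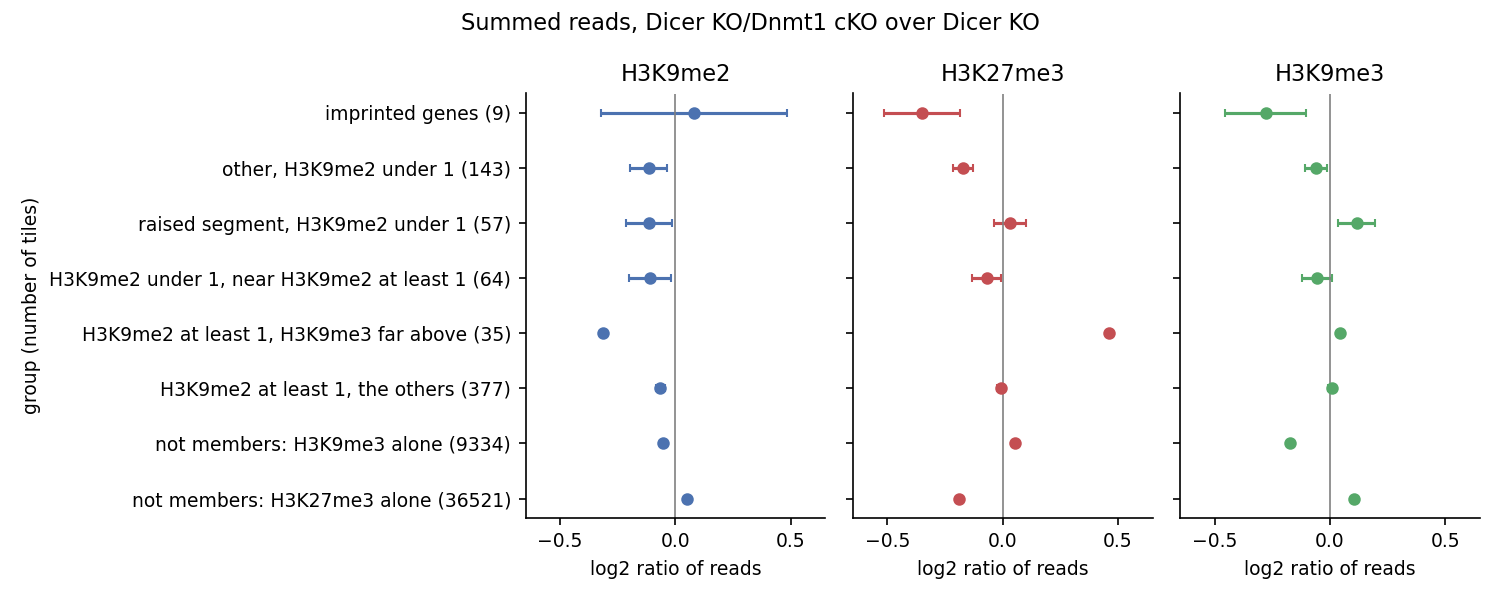
Log2 ratio of summed reads, Dicer KO/Dnmt1 cKO over Dicer KO after division by library totals (horizontal axes), for each mark in groups of members and in tiles with 1 selecting mark (rows, number of tiles in brackets). Points are 1 library against 1 library, error bars are 95% counting intervals, and the 35 tiles with H3K9me3 far above H3K9me2 had -0.32, 0.46 and 0.04.

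In members with H3K9me2 of at least 1 the sums gave -0.26 [-0.27, -0.25] for H3K9me2, 0.30 [0.29, 0.31] for H3K27me3 and 0.04 [0.04, 0.04] for H3K9me3. These values came from few tiles. In 35 tiles whose H3K9me3 was at least 2 above H3K9me2 the ratios were -0.32, 0.46 and 0.04. They included Gm10800, Gm10801 and the chromosome 9 array, but also tiles that ran the other way, such as that of the testis gene Tcte2 at chr17:13744001-13746000, with -0.31 for H3K27me3, and 2 beside AY036118, without which H3K27me3 had 0.55 [0.53, 0.56]. In the 377 others the ratios were -0.07 [-0.09, -0.05], -0.01 [-0.02, 0.01] and 0.01 [-0.01, 0.02]. At Gm10800 H3K27me3 reads were 69516 and 79315, a ratio of 0.54, and its H3K9me2 ratio was -0.34. At chr9:35112001-35114000 the ratios were 0.59 and -0.28, and at the Chl1 tile, which is among the 377, 0.43 and -0.29. Tiles on different chromosomes thus shared nearly the same ratios. Whether their reads come from 1 repeat was not tested, and they are not counted here as separate evidence. In 6 tiles H3K27me3 was at least 2 above H3K9me2. The 3 of them at or beside AY036118, 2 of which are also among the 35, had -0.74 [-0.78, -0.70] for H3K27me3, -0.36 [-0.43, -0.30] for H3K9me3 and 0.32 [0.18, 0.46] for H3K9me2. The 3 elsewhere had -0.35 [-0.46, -0.25], 0.08 [-0.11, 0.27] and 0.11 [-0.15, 0.38]. The Ugt1a locus had -0.08 [-0.14, -0.02] for H3K9me2, -0.01 [-0.06, 0.04] for H3K27me3 and 0.07 [0.01, 0.13] for H3K9me3. These ratios, scaled by library totals, are all close to 0.

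Differences of 2-fold in single members were few. Among members with a mean of at least 10 reads, H3K9me2 was at least 2-fold higher in Dicer KO/Dnmt1 cKO in 5 of 665 and lower in 4, where 4.03% and 2.91% of autosomal tiles passed. For H3K27me3 it was 1 and 1 of 685 (background 3.05% and 2.78%), and for H3K9me3 0 and 1 of 685 (4.07% and 3.37%). Members hold more reads than most tiles and vary less by counting, so their shares cannot be set against the background as like with like. The 9 tiles for H3K9me2 all had H3K9me2 under 1 and few reads. They included an exon tile of the transcription factor gene Zic4 with 3 and 18 reads, the exon tile of Nhlrc1, a ubiquitin ligase gene, with 7 and 21, and an intron tile of Ajap1 with 23 and 10, named after their values were seen. For H3K27me3 the pair was chr7:46556001-46558000, with 91 and 30 reads, and the Gm11167 tile of the chromosome 9 array, with 45 and 79.

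Of members with H3K9me2 under 1, 225 had at least 100 reads of H3K27me3 over both libraries and 69 of H3K9me3, while 0 had that many of H3K9me2. The lowest H3K27me3 ratios were found in 1700030G06Rik at chr5:22218001-22220000, with 92 and 39 reads and a ratio of -0.89 [-1.43, -0.35], and at Cdk8, with 381 and 167 and -0.84 [-1.1, -0.58]. An intergenic tile, chr6:3150001-3152000, had 197 and 88 and -0.81 [-1.17, -0.45], and the exon tile of Lars2, the mitochondrial leucyl-tRNA synthetase, had 152 and 69 and -0.79 [-1.20, -0.38]. At Cdk8, H3K9me3 had -0.39 [-0.81, 0.03] and H3K9me2 0.72 [-0.04, 1.47]. The 3 tiles at or beside AY036118 named above had -0.74 (H3K27me3), -0.36 (H3K9me3) and 0.32 (H3K9me2). H3K9me3 had 0.04 in the intergenic tile and 0.35 at Lars2. Words found elsewhere made up 7.61% of the Cdk8 tile, 65.5% of the intergenic tile and 11.7% of the Lars2 tile. Whether reads of these tiles come from repeats was not tested. The highest H3K27me3 ratios were 0.65 at chr14:105234001-105236000, 0.64 at chr5:146414001-146416000, and 0.63 both in Gpc6 and at chr4:61476001-61478000. The first of these and Gpc6 lie in the chromosome 14 segment. For H3K9me3, the tiles of Grb10 came lowest with -0.71 and -0.65, and Tmem132e, a transmembrane protein gene, had 62 and 44 reads. Higher H3K9me3 was found in an intron of the oxysterol-binding protein gene Osbpl10, with 68 and 96 reads and 0.44 [-0.01, 0.89].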

How the data were processed

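The log2 observed over expected values deposited by the authors were used as they stand, from 6 columns of the table, while 19 other columns of values were not used here. According to the submitters' processing notes, reads were mapped with Bowtie to NCBIM37, and the methods name Trim Galore, removal of reads with a MAPQ under 20 and SeqMonk. The methods give 1 kb tiles, whereas the deposited table has 2 kb tiles. Reads per tile were recovered from the values, which are multiples of a step in each library. Tiles without reads hold 0.9 of a step and were set to 0, and 1 value of each H3K9me3 library lay over 0.1 reads from a whole number before rounding. Ratios were scaled by library totals. Genes were those of GENCODE M1. Masked sequence was not available, as the genome used is not masked, so 31-base words occurring elsewhere in the assembly took its place. Members joined across up to 100 kb formed a locus. The members and the gene lists were chosen with earlier results of these data known. Named genes were those with most members, the members with the highest levels, and the largest ratios among members with at least 100 reads, and some of these are not reported here. Python 3.11.15, numpy 2.4.6, pandas 2.3.3, scipy 1.17.1, numba 0.67.0 and matplotlib 3.10.9 were used.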

Additional observations from a re-analysis of the deposited data

How the results depend on the processing

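No paired analysis was possible because no mark had more than 1 library of either genotype. The 685 members became 286 at a threshold of 1.5, 9666 at 0.5, and 394 when only runs of at least 2 adjacent tiles were kept. The share with H3K9me2 of at least 1, 60.1%, was then 93%, 7.77% and 81.0%, and it was 72.6% when each of the 4 libraries of the selecting marks had to reach 1. Splitting at an H3K9me2 of 0.5 gave 76.2%, with 163 members below the split in place of 273. Further settings were chosen after the data were seen. A split at 0 gave 86.1% and 95 members, leaving out the chromosome 14 segment gave 65.2%, and subtracting the median shift of each 2 Mb bin gave 3988 tiles and 78.5%. Of the 3487 tiles that entered in this way, 3125 lay in bins at least 0.5 below the autosomal median in all 3 marks. Subtracting such a low median raises the level of each tile in the bin.

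For members with H3K9me2 under 1, the H3K27me3 ratio of -0.11 was -0.0768 as the median of single tiles and -0.15 without the chromosome 14 segment. Their H3K9me3 ratio of -0.04 was 0.00235 as the tile median, which reverses its sign, -0.0689 without the segment, and -0.0882 in runs, where the H3K9me2 ratio of -0.11 was -0.0527.

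For members with H3K9me2 of at least 1, the sums rest on few tiles by construction. As the tile median, H3K9me2 had -0.0918 in place of -0.26, H3K27me3 0.0045 in place of 0.30, and H3K9me3 -0.0147 in place of 0.04, a reversed sign. Without the 1% of members with most reads these were -0.0951, -0.0276 and -0.00272, with the signs of H3K27me3 and H3K9me3 reversed. Without the tiles where H3K9me3 was at least 2 above H3K9me2 they were -0.0659, -0.00905 (reversed) and 0.00722. Scaling to a median ratio of 0 gave 0.0269 for H3K9me3.

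The 1.35% of members with a 2-fold difference in H3K9me2 became 0 with a mean of at least 30 reads. Placing tiles by their midpoint gave a gene overlap of 51.7% in place of 55.6% for all members, and 58.3% in place of 63.1% for those with high H3K9me2. In all, 44 comparisons stayed the same, 27 moved and 5 reversed.

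In the median member with H3K9me2 under 1, just 22 and 24 reads of H3K9me2 limit what a single tile can show for that mark. Without replicate libraries, differences between genotypes cannot be told apart from differences between preparations. Without an input library, extra copies of a sequence in the cells cannot be told apart from a mark, and reads of both alleles or of different cells in 1 tile cannot be told apart from both marks on the same chromatin.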

Other observations

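A few members with differing balances of marks remain. Over the whole of Tcte2, named above for 1 tile, there were 7 members at chr17:13732001-13746000 with a H3K9me3 ratio of -0.42 [-0.51, -0.33], and that tile held 1654 and 1242 H3K9me3 reads in Dicer KO and Dicer KO/Dnmt1 cKO. At Dux, which encodes a double homeobox transcription factor, 7 members at chr10:57672001-57700000 had ratios of -0.26 for H3K9me2, 0.18 for H3K27me3 and 0.01 for H3K9me3. In an intron shared by Filip1l and 2610528E23Rik, chr16:57390001-57392000, H3K27me3 reads were 386 and 177, a ratio of -0.77 [-1.03, -0.52], with H3K27me3 at 3.48 and H3K9me2 at 1.11.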
